A study of Homo sapiens with 4 samples.

Results

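RAB3B and 9 further genes of secretory granule traffic were examined in 22Rv1, an established castration-resistant line of human prostate carcinoma. The 10 genes were chosen by symbol: RAB3B was picked from these arrays as strongly induced by dihydrotestosterone (DHT), and RAB3A, RAB3D, RAB27A, RAB27B, SYTL1, SYTL2, SYTL4, TPD52 and CREB3L4 for their part in granule traffic of prostate epithelium. Each had 1 probe set, and together they make up 10 of 17687 named genes. RNA was profiled on 4 whole-transcript arrays, 1 per group: siOCT1 with 10 nM DHT, siOCT1 with ethanol vehicle, siControl with 10 nM DHT, and siControl with ethanol vehicle. siOCT1 is an siRNA against the transcription factor OCT1, and the level of its target was not analysed here. All 4 groups had been transfected 48 h before hormone, kept in medium with 2.5% charcoal-stripped serum, and exposed to ligand for 24 h. Each group is 1 array, so no difference between 2 arrays could be set against repeat cultures, and so few arrays limit the precision. In RNA from whole cultures, fewer cells of a type and less RNA per cell cannot be told apart.

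RAB3 and RAB27 proteins are small GTPases that sit on secretory granules and bring them to the plasma membrane for release. In their GTP-bound form they bind effectors such as the synaptotagmin-like proteins (SYTL), which tether the granule, and SNARE proteins then fuse it with the membrane. Luminal prostate cells secrete kallikreins and acid phosphatase in this general way, and androgen is known to govern much of that secretory output.

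RAB3B is the gene that was picked, and RAB3A and RAB3D are its relatives among the 10, so the promoter windows of these 3 genes are shown, from 250 bases before to 50 bases after the start in RefSeq (GRCh38.p14). They lie at chr1:51990651-51990950 for RAB3B, chr19:18203993-18204292 for RAB3A and chr19:11339608-11339907 for RAB3D, all on the minus strand, and are printed along the gene. Capitals mark matches to the motifs searched.
RAB3B: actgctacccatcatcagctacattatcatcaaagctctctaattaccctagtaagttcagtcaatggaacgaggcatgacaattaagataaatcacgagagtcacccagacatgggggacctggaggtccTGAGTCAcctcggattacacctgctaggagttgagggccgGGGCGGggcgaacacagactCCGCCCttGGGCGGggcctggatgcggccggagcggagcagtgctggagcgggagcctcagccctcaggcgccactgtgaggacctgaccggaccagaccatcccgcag
RAB3A: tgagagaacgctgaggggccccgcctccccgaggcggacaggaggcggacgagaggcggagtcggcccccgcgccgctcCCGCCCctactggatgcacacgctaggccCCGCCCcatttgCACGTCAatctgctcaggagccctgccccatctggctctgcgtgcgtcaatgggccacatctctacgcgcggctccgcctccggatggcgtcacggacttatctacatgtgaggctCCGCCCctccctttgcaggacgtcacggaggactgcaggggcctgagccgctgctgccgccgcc
RAB3D: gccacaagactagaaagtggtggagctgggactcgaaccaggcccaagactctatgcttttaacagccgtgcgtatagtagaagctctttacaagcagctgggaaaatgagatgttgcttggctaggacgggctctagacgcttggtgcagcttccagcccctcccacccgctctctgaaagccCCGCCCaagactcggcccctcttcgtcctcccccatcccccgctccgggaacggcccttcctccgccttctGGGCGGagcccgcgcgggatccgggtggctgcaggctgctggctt
Motifs were searched on both strands in 35116 windows of this length, of which 14 belong to 8 of the 10 genes. Windows for SYTL2 and TPD52 were not used here. The octamer bound by OCT1 (ATGCAAAT) occurred in 1.77% of all windows and in none of the 14. The palindromic androgen element occurred in 0.39% of all windows and in none of the 14. The androgen half-site AGAACA occurred in 14.8% of all windows and in 2 of the 14, 1 each of RAB27A and RAB27B. The cyclic AMP element TGACGTCA occurred in 1.85% of all windows and in none of the 14. The stress element core TGACGTG occurred in 1.97% of all windows and in 2 of the 14, 1 each of RAB3A and RAB27A. TGANTCA is a loose form of the AP-1 motif that takes any middle base. This pattern was present in 7.71% of all windows and in 5 of the 14. It lay 119 bases before the start of RAB3B, as TGAGTCA, and was found in neither RAB3A nor RAB3D. The matches of RAB27B and SYTL1 also read TGAGTCA, and those of RAB27A read TGATTCA. The GC box GGGCGG, present in 15786 of all 35116 windows and in 9 of the 14, occurred 3 times in RAB3B, 3 times in RAB3A and 2 times in RAB3D. The TGANTCA pattern and the GC box were added after these sequences had been read. A match describes letters in a window only.

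Array signals are log2 values made by RMA, and the background of an array is the 95th percentile of its 612 negative control probe sets, between 6.62 and 7.39. Genes whose brightest array reached past 6.515, the median of such maxima among all named genes, counted as measured, and these were 8843 genes and 6 of the 10. RAB27A, SYTL1, SYTL4 and CREB3L4 did not, and lay below background on all 4 arrays. The epithelial markers KRT8, KRT18, KRT19, EPCAM and CDH1 lay above background on every array, with summed linear signals of 43820 and 31730 in siOCT1 cells (DHT and vehicle) and 79770 and 35970 in siControl cells. Of 8 stromal, endothelial and immune markers 7 lay below background throughout, and their summed signal ranged from 195.5 to 215.3 in siOCT1 cells and from 196.2 to 208.5 in siControl cells. COL1A2 was above background on 1 array, and the endothelial and immune markers PECAM1, CDH5, PTPRC, CD3E and CD14 on none. KRT8, a luminal keratin, fell with siOCT1 (limma adjusted p = 0.0342) and was the only 1 of these 5 markers called. KRT18, KRT19, EPCAM and CDH1 had mean siOCT1 differences of -0.50, -0.21, 0.14 and 0.31 (limma adjusted p of 0.187, 0.772, 0.635 and 0.346). The part of the KRT8 difference in the results below was not tested. The 4 hybridisation spike-in probe sets, bacterial and phage controls added to the hybridisation mix, were higher on the siOCT1 arrays, by a median of 1.10 in DHT and 0.99 in vehicle. Between DHT and vehicle arrays they differed by -0.14 in siOCT1 and -0.22 in siControl cells.

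**Figure D1:**
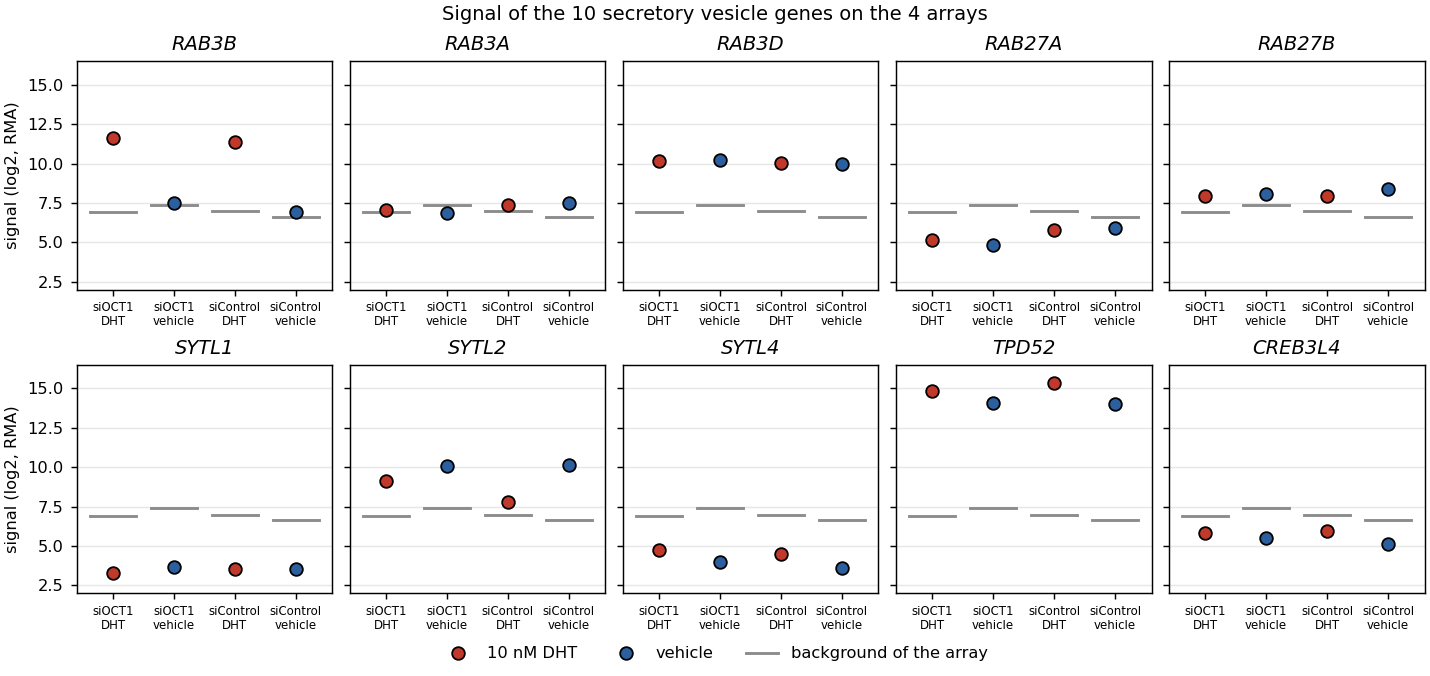
Signal (log2, RMA) of each of the 10 genes on the 4 arrays, 1 point per array, red for DHT and blue for vehicle, with the background of each array as a grey bar. RAB3B stands at 11.64 and 11.37 with DHT and at 7.48 and 6.95 in vehicle, and RAB27A, SYTL1, SYTL4 and CREB3L4 lie under the bars on every array.

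RAB3B, the RAB3 isoform known from secretory epithelia and prostate cancer cells, was high on both DHT arrays and low on both vehicle arrays. Its signal was 11.64 with DHT and 7.48 in vehicle in siOCT1 cells, and 11.37 with DHT and 6.95 in vehicle in siControl cells. The DHT arrays were thus 17.8-fold above vehicle in siOCT1 cells and 21.4-fold in siControl cells, and this contrast is given as a description because RAB3B was picked on it. The vehicle values exceeded the background of their arrays by only 0.09 in siOCT1 and 0.33 in siControl cells, so the resting level is measured poorly and both folds depend on it. By mean difference with DHT, RAB3B ranked 7 of 8843 measured genes.

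RAB3D and RAB3A did not share this layout, while RAB3C, a relative outside the 10, ran the same way as RAB3B at a smaller size. RAB3C had 8.18 with DHT and 6.96 in vehicle in siOCT1 cells, and 7.88 with DHT and 7.30 in vehicle in siControl cells. Its DHT values were at least 1.72-fold higher in siOCT1 cells, where the vehicle value lay below background, and higher by 0.58 on the log2 scale in siControl cells (limma adjusted p = 0.28). RAB3D, the isoform of zymogen and other exocrine granules, had signals of 10.14 with DHT and 10.24 in vehicle in siOCT1 cells, and of 10.07 with DHT and 9.99 in vehicle in siControl cells. Its values spanned 0.25 over the 4 arrays, against 4.69 for RAB3B. RAB3A, best known from neuronal and neuroendocrine vesicles, had 7.08 with DHT and 6.84 in vehicle in siOCT1 cells, and 7.39 with DHT and 7.51 in vehicle in siControl cells. It stayed within 0.89 of background on the 3 arrays where it exceeded it. Probes of such related genes can share transcripts, and the part of this in the values above was not tested. With DHT, RAB3D differed from vehicle by -0.10 in siOCT1 and 0.07 in siControl cells. RAB3A differed by 0.24 and -0.12, and its vehicle value in siOCT1 cells lay below background.

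RAB27A and RAB27B, which dock granules through SYTL effectors, differed from each other in detection. RAB27B, the isoform of many exocrine glands, lay above background on every array, with 7.97 with DHT and 8.09 in vehicle in siOCT1 cells, and 7.92 with DHT and 8.41 in vehicle in siControl cells. RAB27A had 5.13 with DHT and 4.86 in vehicle in siOCT1 cells, and 5.80 with DHT and 5.88 in vehicle in siControl cells. Its 2 siOCT1 values exceeded 83.7% and 80.9% of the negative controls and its 2 siControl values 90.4% and 91.5%. No fold is given for it.

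SYTL2, a RAB27 effector that tethers granules at the plasma membrane, ran opposite to RAB3B. It had 9.13 with DHT and 10.11 in vehicle in siOCT1 cells, and 7.81 with DHT and 10.14 in vehicle in siControl cells. Both DHT values lay below both vehicle values, by 1.97-fold in siOCT1 and 5.03-fold in siControl cells, and the siControl array with DHT was the lowest. SYTL4 (granuphilin), a RAB3 and RAB27 effector, was higher with DHT by 0.79 in siOCT1 and 0.87 in siControl cells, but its values of 3.62 to 4.78 were all below background. SYTL1, a RAB27 effector, ranged from 3.32 to 3.69 and exceeded 49.3% to 58.5% of the negative controls, so its transcript was not detectable on these arrays.

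TPD52, a coiled-coil protein of vesicle traffic and exocytosis in secretory epithelia, was the brightest probe set of the 10. It had 14.85 with DHT and 14.09 in vehicle in siOCT1 cells, and 15.32 with DHT and 14.03 in vehicle in siControl cells. Both DHT values lay above both vehicle values, by 1.69-fold in siOCT1 and 2.45-fold in siControl cells. CREB3L4, a membrane-bound transcription factor of prostate epithelium that is released by cleavage, was below background throughout, with 5.80 and 5.95 with DHT in siOCT1 and siControl cells and 5.50 and 5.14 in vehicle. It exceeded 83.7% to 91.2% of the negative controls.

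An additive limma model of siRNA and ligand over all 4 arrays gave a test of each effect with 1 residual degree of freedom, whose residual is the departure from additivity and not the spread between repeat cultures. The p-values therefore measure something other than culture-to-culture error. Of the 5 measured genes other than RAB3B, none passed for DHT after Benjamini-Hochberg adjustment over 8843 genes, where 0.984% of all measured genes did. TPD52 stood at 1.03 ± 0.20 (mean of both pairs with its limma SE, adjusted p = 0.0808) and SYTL2 at -1.65 ± 0.36 (limma, adjusted p = 0.109), and both had an unadjusted limma p under 0.05, as had 13.5% of all measured genes. With arrays centred on positive controls both were called, with adjusted limma p of 0.00858 for TPD52 and 0.0117 for SYTL2. Their means there were 1.07 and -1.61, close to the main ones. Over all 8843 measured genes that setting called 293 for DHT, against 87 in the main fit. RAB27B, RAB3A and RAB3D had mean DHT differences of -0.31, 0.06 and -0.01, with adjusted limma p of 0.681, 0.953 and 0.988. By size, 2 of these 5 genes passed 1.5-fold in the same direction under both siRNAs, where 9.23% of measured genes did. TPD52 was higher, as were 4.86% of measured genes, and SYTL2 lower, as were 4.37%. Neither passed a 2-fold rule under both siRNAs. Of the negative controls 14.7% passed the 1.5-fold rule, at dim signals.

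**Figure D2:**
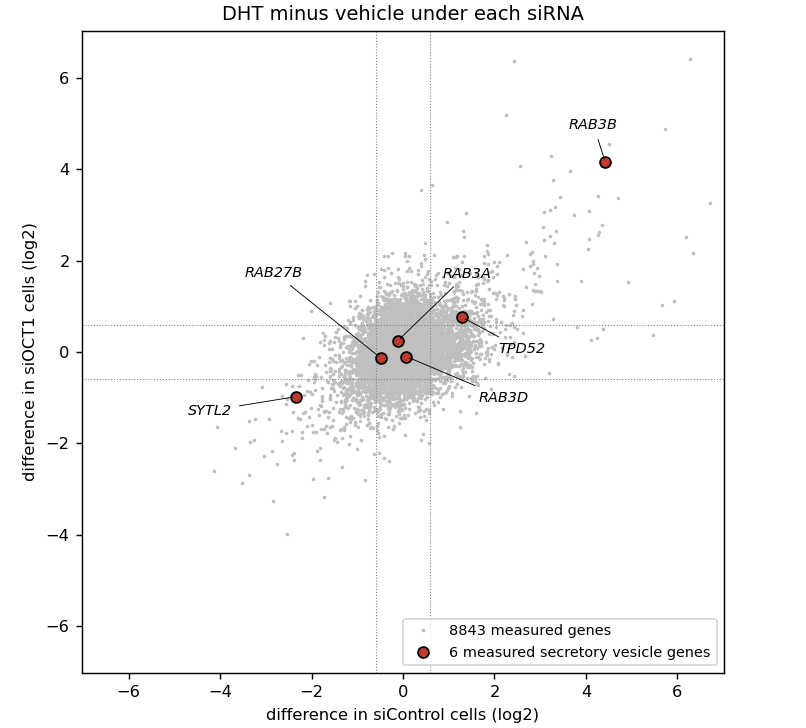
DHT minus vehicle (log2) in siOCT1 cells on the vertical axis and in siControl cells on the horizontal axis, grey for 8843 measured genes and red for the 6 measured secretory vesicle genes, with dotted lines at 1.5-fold. RAB3B lies at 4.16 in siOCT1 and 4.42 in siControl cells, toward the upper right, TPD52 above and SYTL2 below the dotted lines on both axes, and the other 3 inside them.

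The siRNA comparison was not used to choose the genes. None of the 6 measured genes was called by limma for siOCT1 against siControl after Benjamini-Hochberg adjustment, and none had an unadjusted limma p under 0.05, where 24.4% and 39.3% of measured genes did. None passed 1.5-fold in the same direction in both ligand states, which 30.9% of measured genes did. RAB3B was higher in siOCT1 cells by 0.27 in DHT and 0.53 in vehicle (mean 0.40 ± 0.26, limma SE, adjusted p = 0.292). RAB3A was 1.24-fold lower in DHT and at least 1.08-fold lower in vehicle, where the siOCT1 value lay below background (mean -0.49 ± 0.31, limma SE, adjusted p = 0.286). RAB3D, RAB27B and TPD52 had mean differences of 0.16, -0.13 and -0.20, with adjusted limma p of 0.666, 0.761 and 0.498. SYTL2 stood apart between the ligand states, with differences of 1.32 in DHT and -0.03 in vehicle (mean 0.65, limma adjusted p = 0.232). Its siControl value with DHT was the lowest of the 4 arrays.

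These siRNA differences hold on the RMA scale, which sets all arrays to a common distribution. Centring arrays on the hybridisation spike-ins moved the median siRNA difference of all measured genes by -1.14 and turned the means of RAB3B, RAB3D and SYTL2 to -0.74, -0.98 and -0.49. On that scale limma called 5 of the 6 lower in siOCT1 cells, all but SYTL2, as it did 6423 of all 8843 measured genes. The part of RNA amount, labelling or normalisation in the spike-in difference was not tested.

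**Figure D3:**
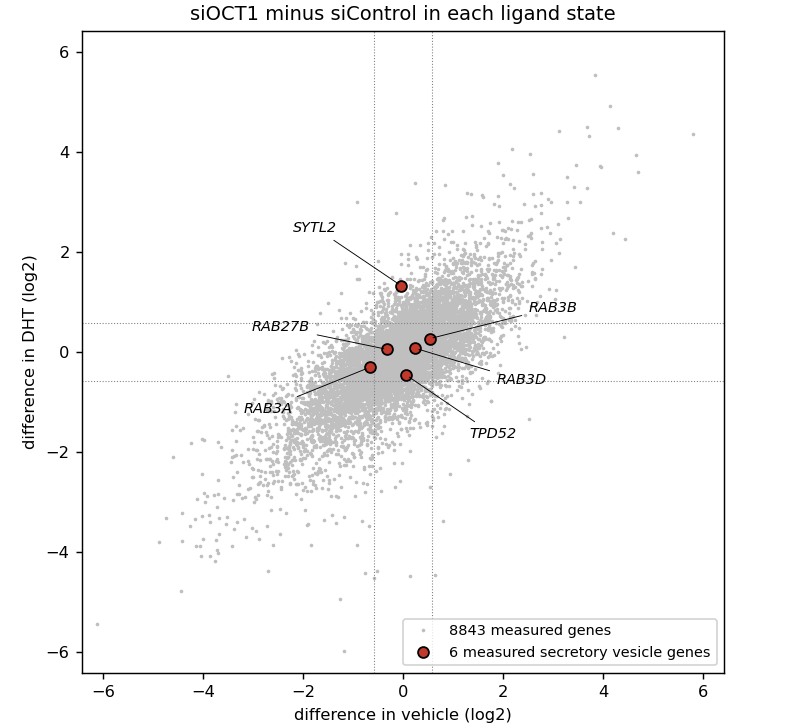
siOCT1 minus siControl (log2) in DHT on the vertical axis and in vehicle on the horizontal axis, grey for 8843 measured genes and red for the 6 measured secretory vesicle genes, with dotted lines at 1.5-fold. RAB3B, at 0.27 in DHT and 0.53 in vehicle, lies inside the dotted lines, and SYTL2, at 1.32 in DHT and -0.03 in vehicle, leaves them on the vertical axis only.

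The DHT response under siOCT1 minus that under siControl rests on all 4 arrays and leaves nothing to test it against. It was -0.27 for RAB3B, and 65.8% of measured genes had a larger value in either direction. It was 1.36 for SYTL2, whose response was thus smaller in siOCT1 cells, and 5.58% of measured genes had a larger one. SYTL2 was the 1 gene of the 6 past 1.5-fold, where 35.5% of measured genes were. TPD52 stood at -0.53, also a smaller response in siOCT1 cells, and 39.6% of measured genes had a larger value in either direction. It reached -0.61 with loess centring and -0.74 with centring on positive controls. The latter moves every gene by the same amount, and RAB3B stood at -0.48 there. In the main setting RAB3A, RAB27B and RAB3D had 0.36, 0.37 and -0.18.

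The 5 measured genes nearest to RAB3B by Euclidean distance over the 4 arrays, after taking off each gene's own mean, were NAT1 (0.54), INPP4B (0.69), THSD7A (0.88), ZBTB16 (0.90) and STEAP1 (1.10), in log2 units. The acetyltransferase NAT1 had 11.05 with DHT and 7.63 in vehicle in siOCT1 cells, and 11.06 and 6.80 in siControl cells. INPP4B, a phosphatase of inositol lipids, had 9.56 with DHT and 6.19 in vehicle in siOCT1 cells, and 9.47 and 4.78 in siControl cells, so both vehicle values lay below background. STEAP1, a prostate surface antigen, was the least alike of the 5, with 10.43 and 7.65 in siOCT1 cells and 11.32 and 6.97 in siControl cells. With 4 arrays such likeness largely restates that DHT arrays were high, and no test was made.

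**Figure D4:**
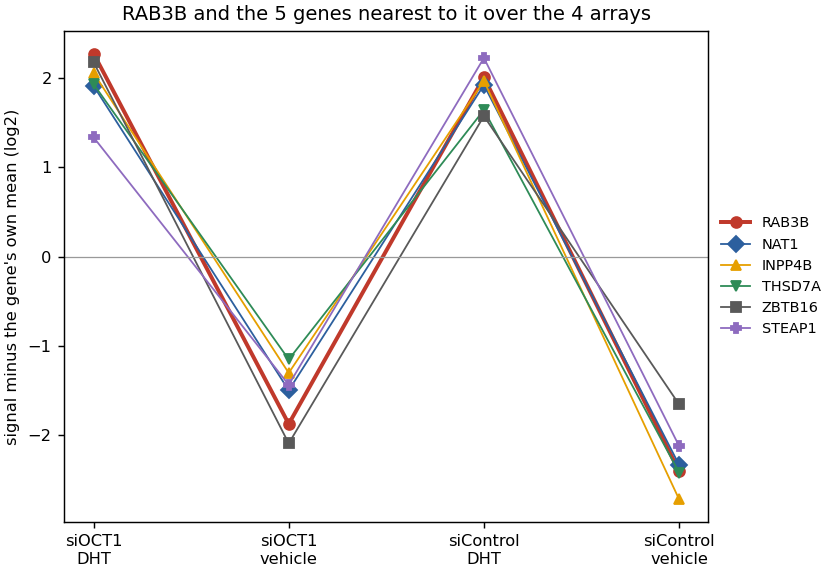
Signal of RAB3B and the 5 nearest genes on the 4 arrays (log2, each minus its own mean), 1 marker per array, with lines joining the arrays of a gene only to guide the eye. All 6 genes are above their mean on both DHT arrays and below it on both vehicle arrays.

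The surrounding machinery was read from 10 lists with 177 genes, of which 116 were measured. For DHT limma called 1 of the 116 (adjusted over all measured genes), against 0.679% higher and 0.305% lower among all measured genes. This was STXBP6 (amisyn), a syntaxin-binding protein, which fell with DHT, with differences of -2.76 in siOCT1 cells and, as a bound, at least 2.34-fold in siControl cells (limma adjusted p = 0.0436). It had 8.25 with DHT and 11.004 in vehicle in siOCT1 cells, and 6.58 and 8.21 in siControl cells, where the DHT value was below background. Its mean was -2.20, and stayed at -2.19 with loess centring (adjusted p = 0.0761), -2.0002 with 32 added before the logarithm (0.0732), -2.01 with spike-in centring (0.0663) and -1.79 once values were raised to background (0.306), none of which passed. Centring on positive controls kept the call (0.00194). For siOCT1 10 of the 116 rose and 13 fell, 8.62% and 11.2%, against 9.1% and 15.3% of all measured genes.

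Among regulators of RAB3 and RAB27, 8 genes were measured, with a median of -0.20 for siOCT1 and -0.16 for DHT, against -0.06 and 0.01 over all measured genes. RAB3GAP1, a subunit of the enzyme that switches RAB3 off, rose in siOCT1 cells (limma adjusted p = 0.0475), at least 1.72-fold in vehicle, with 3 of its 4 values below background and both in DHT. It was not called with loess centring (0.0568), with spike-in centring (0.46), with 32 added (0.0556) or with values raised to background (0.982). RABIF, a chaperone of exocytic RABs, was lower in siOCT1 cells, at least 1.39-fold in DHT and at least 1.06-fold in vehicle, both siOCT1 values being below background (limma adjusted p = 0.0787). RAB3IP (Rabin8), an exchange factor, had mean differences of -0.05 for siOCT1 and -0.29 for DHT. MADD, a RAB3 exchange factor, had 0.59 and -0.33.

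The 8 measured effectors had a median of 0.41 for siOCT1 and -0.56 for DHT. RIMS1, a RAB3-binding scaffold of release sites, rose in siOCT1 cells (limma adjusted p = 0.0366), at least 2.44-fold in vehicle. It exceeded background on 1 of 4 arrays, siOCT1 in vehicle, and was not called with spike-in centring (0.525) or values raised to background (0.377). UNC13B, a priming factor, fell with differences of -0.55 and -2.05 (limma adjusted p = 0.047), a mean of -1.30. The mean was -1.21 with loess centring (0.0708), -1.27 with 32 added (0.0526) and -1.30 with values raised to background (0.0818), none of which passed. No effector passed for DHT, where 0.984% of all measured genes did. RIMS2 had DHT differences of -0.62 in siOCT1 and -0.55 in siControl cells (limma adjusted p = 0.364), and EXPH5 of -1.08 and -0.07 (0.475). MYRIP exceeded background on 1 of 4 arrays, siControl in vehicle, and was at least 1.22-fold lower with DHT in siControl cells (limma adjusted p = 0.364).

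The 12 further measured RABs of secretion had medians of 0.13 for siOCT1 and -0.10 for DHT. Of them 1 rose in siOCT1 cells, where 9.1% of all measured genes did. RAB8B, a GTPase of transport to the cell surface, had 9.02 with DHT and 9.54 in vehicle in siOCT1 cells, and 6.96 and 7.34 in siControl cells (limma adjusted p = 0.00425). Both siOCT1 values lay above both siControl values, of which that with DHT was below background. RAB26, a GTPase of secretory granules in exocrine cells, was at least 2.08-fold lower with DHT in siOCT1 cells, where the DHT value lay below background, and 1.69-fold lower in siControl cells (limma adjusted p = 0.216).

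The SNARE list had 31 measured genes, medians of 0.11 for siOCT1 and -0.02 for DHT, and 4 genes that rose and 1 that fell with siOCT1, where 9.1% of all measured genes rose and 15.3% fell. STXBP6 rose at least 2.39-fold in DHT and 6.91-fold in vehicle (limma adjusted p = 0.00684, and 0.0597 with values raised to background). The endosomal syntaxin STX7 rose by 0.97 and 1.59 (limma adjusted p = 0.0267, and 0.679 with spike-in centring). STX17 rose by 1.22 and 1.27 (limma adjusted p = 0.0199) and VAMP7 by 0.65 and 1.39 (0.0434). Neither was examined under the alternatives. Their means were 1.25 and 1.02, and spike-in centring moved the median siRNA difference of all measured genes by -1.14. NAPB, a SNAP protein of SNARE recycling, fell, with -1.34 and -1.65 (limma adjusted p = 0.00951). Calcium sensors were mostly dim, with 14 of 19 below background on every array. SYT4 fell with siOCT1, with -0.74 in DHT and -1.43 in vehicle (limma adjusted p = 0.0309), and SYT7 had DHT differences of -1.05 in siOCT1 and -0.90 in siControl cells (0.166).

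The exocyst, the complex that tethers secretory vesicles at the plasma membrane, had 8 measured genes with a median of 0.71 for siOCT1 and 0.22 for DHT. Over all measured genes the medians were -0.06 and 0.01. Of the 8, 3 rose with siOCT1, where 9.1% of all measured genes did. EXOC2, EXOC3, EXOC4, EXOC6 and EXOC8 were not called, with mean siOCT1 differences of 0.42, 0.998, 0.03, -0.49 and -0.47. In siOCT1 cells EXOC1 rose by 0.76 in DHT and 1.44 in vehicle (limma adjusted p = 0.0341), EXOC5 by 0.73 and 1.44 (0.0365) and EXOC6B by 0.82 and 1.19 (0.0489), and the means of all 3 turned to -0.036, -0.056 and -0.13 with spike-in centring. With values raised to background their means were 1.10, 1.08 and 0.71, and none was called (adjusted p from 0.0517 to 0.0694). Dense core granule proteins of neuroendocrine cells had 5 measured genes, with medians of -0.42 and 0.32. VGF fell with siOCT1 (limma adjusted p = 0.0422, and 0.0503 with loess centring and 0.848 with values raised to background), at least 1.49-fold in DHT, both siOCT1 values being below background, and carboxypeptidase E (CPE) had -0.44 and -0.58 (0.165).

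Genes of exit from the endoplasmic reticulum had 26 measured members with a median of -0.25 for siOCT1 and 0.13 for DHT, and 7 fell with siOCT1 while none rose, where 15.3% of all measured genes fell and 9.1% rose. The cargo receptor TMED10 had 11.32 with DHT and 11.71 in vehicle in siOCT1 cells, and 13.53 and 13.18 in siControl cells (limma adjusted p = 0.0052). The COPII coat gene SEC24D fell, with -1.997 in DHT and -0.84 in vehicle (limma adjusted p = 0.0266, and 0.0547 with values raised to background). SEC13, of the same coat, fell with -0.72 and -1.66 (limma adjusted p = 0.0317, and 0.0538 with values raised to background). SEC23B, LMAN1, TMED2 and TMED9 were the other 4 that limma called, and are named after their values were seen. With DHT none passed, and the retrieval receptor KDELR3 had -1.33 under both siRNAs (limma adjusted p = 0.0845). In the list of TPD52 and CREB3 families, which also holds MBTPS1 and XBP1, 6 genes were measured and none passed for either effect. Of all measured genes 24.4% passed for siOCT1 and 0.984% for DHT. XBP1, a transcription factor of secretory capacity, had -0.81 and -0.73 for siOCT1 (limma adjusted p = 0.0595), and -0.80 in siOCT1 and -0.72 in siControl cells for DHT (0.248).

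Prostate secretory cargo had 6 measured genes with medians of -0.30 for siOCT1 and 0.81 for DHT. Of these 6, 2 lay above background on every array, KLK4 and KLK15. KLK2, KLK3 and ACP3 each exceeded it on 2 arrays and KLK11 on none, so both medians lean on dim values. KLK4, a kallikrein protease, had 15.16 with DHT and 13.72 in vehicle in siOCT1 cells, and 15.56 and 15.29 in siControl cells, and fell with siOCT1 (limma adjusted p = 0.0444, and 0.0506 to 0.0782 with loess centring, 32 added or values raised to background). KLK2, a protease of seminal plasma, also fell with siOCT1 (limma adjusted p = 0.013, and 0.249 with values raised to background), with 6.78 and 4.13 in siOCT1 cells, both below background, and 8.37 and 7.04 in siControl cells. With DHT KLK2 was 2.5-fold higher in siControl cells, and no fold is given in siOCT1 cells (limma adjusted p = 0.101). KLK4 was higher with DHT by 1.45 in siOCT1 and 0.27 in siControl cells (limma adjusted p = 0.256). The acid phosphatase gene ACP3 was lower with DHT, at least 2.32-fold in siOCT1 and at least 1.33-fold in siControl cells, both DHT values being below background (limma adjusted p = 0.052).

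**Figure D5:**
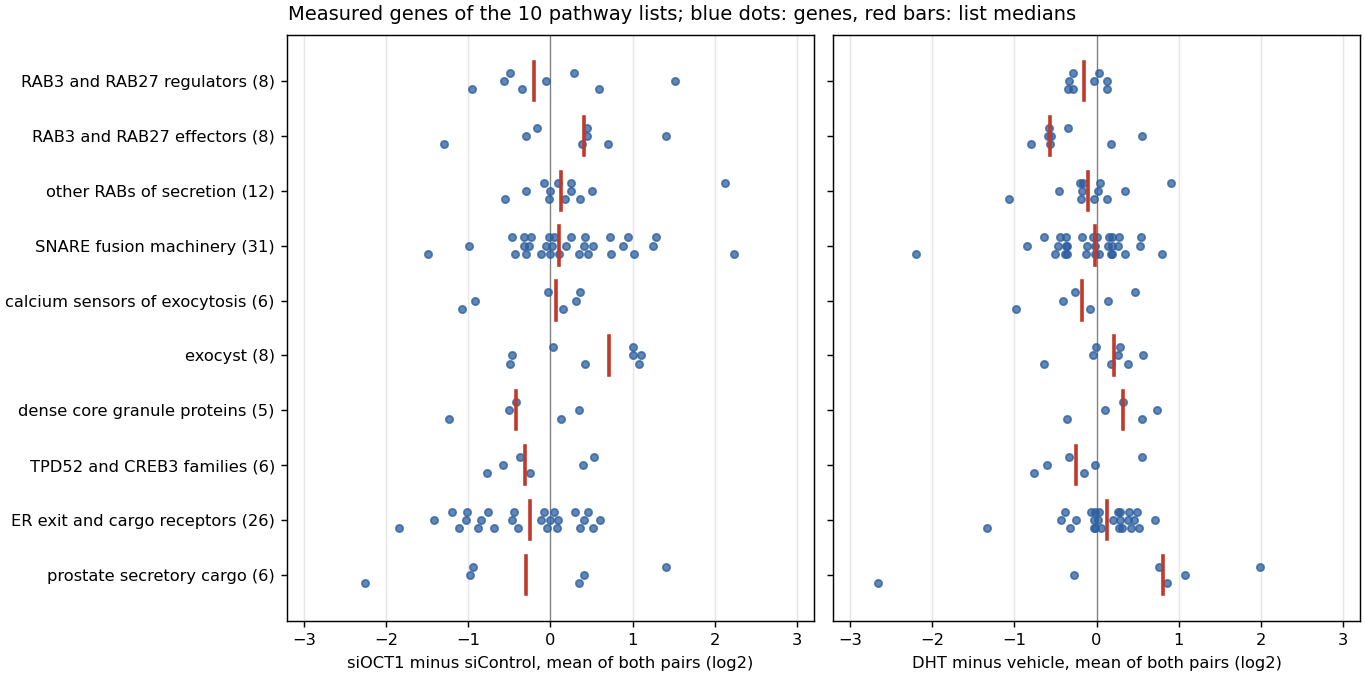
Mean difference over both pairs of arrays (log2) for the measured genes of 10 pathway lists, siOCT1 minus siControl on the left and DHT minus vehicle on the right, with blue dots for genes, red bars for list medians and measured genes per list in brackets. List medians run from -0.42 to 0.71 for siOCT1 and from -0.56 to 0.81 for DHT.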

How the data were processed

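RNA of 4 cultures of 22Rv1 cells was hybridised to 1 whole-transcript array each. Deposited log2 signals were used, which the submitters' processing notes credit to Expression Console and RMA. Versions and genome build: not given in the sources used here. The log base was judged by how far the signals reach. RMA forces arrays to a common distribution. Between 327 and 379 values per array exceeded 16, so folds hold on the deposited scale only.

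Of 24351 probe sets 17709 had 1 gene symbol and 0 had several in the platform table, giving 17687 genes. For 20 genes with more than 1 probe set, the brightest on average stood for the gene. A fold is a bound where 1 of 2 arrays was under its background, and is left out where both were.

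Differences between single arrays were set against 1.5-fold (0.05 was the threshold for adjusted p). The additive fit used eBayes of limma 3.58.1, moderated along signal intensity (prior degrees of freedom 5.85) in R 4.3.3 on all 8843 measured genes, tested on simulated data, with Benjamini-Hochberg adjustment. The words rose and fell mark its calls. The genes and lists were chosen with earlier results of these data known. Of the lists, the 3 measured genes with the largest mean difference per comparison could be named. STX17, VAMP7, EXOC2, EXOC4, EXOC6, EXOC8, SEC23B, LMAN1, TMED2, TMED9, KLK11 and KLK15 were added after their values were seen. None of these was examined singly under the alternatives. Alternatives were no filter or a minimum highest value of 8, the mean of probe sets, loess centring (fraction 0.3), centring on 2197 positive controls, 32 added before the logarithm, values raised to the highest background, robust moderation, moderation with no trend, and a 2-fold rule. Centring on 4 spike-ins was added after seeing the data. Of the listed genes 12 were not analysed here. All other steps ran in Python 3.11.15 (pandas 2.3.3, numpy 2.4.6, statsmodels 0.14.6 for loess).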

Additional observations from a re-analysis of the deposited data

Results flagged for a closer look

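For KRT19, STEAP1 and KLK3, siOCT1 minus siControl passed 1.5-fold in opposite directions in the 2 ligand states, and these differences between states were not tested. The epithelial keratin gene KRT19, above background on all 4 arrays, was at 0.85 in DHT and -1.27 in vehicle. STEAP1, 1 of the 5 genes nearest to RAB3B, was at -0.89 for siOCT1 minus siControl in DHT and 0.69 in vehicle. The prostate-specific antigen gene KLK3 had -0.59 in DHT and 1.28 in vehicle, and both of its vehicle values lay below background. The 4 hybridisation spike-in probe sets, which enter no comparison of genes, were higher on the siOCT1 arrays by a median of 1.10 in DHT and 0.99 in vehicle, with all 4 higher in both states. The 4 poly-A spike-ins were likewise higher, by 1.51 and 1.29.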

How the results depend on the processing

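No paired analysis was possible because each group has 1 array, and leaving out an array leaves the additive model no residual degree of freedom. For siOCT1, the count of called genes among the 10 was 0 under every alternative but 1, and 5 with spike-in centring. The count past 1.5-fold in both ligand states was 0, but 1 with no filter (RAB27A, below background) and 5 with spike-in centring. For DHT without RAB3B, limma called 0, but 2 with centring on positive controls, and 2 genes passed 1.5-fold under both siRNAs, but 3 with no filter (SYTL4, below background, in addition) and 0 with the 2-fold rule. The DHT response differed past 1.5-fold for 1 gene, and for 2 with loess centring or centring on positive controls. Each gene, comparison and alternative gave 1 value. Of these values, 39 changed sign, 30 passed the threshold newly, 31 no longer passed and 500 were counted as the same. Sign changes were counted first, so the 39 include values that also crossed the threshold. RAB3B for siOCT1 with spike-in centring was 1 of these (limma adjusted p = 0.0356). Among the 500, the untested response of RAB3B turned to 0.18 with values raised to background. With spike-in centring 27 changed sign. For siOCT1 these were RAB3B (-0.74), RAB3D (-0.98), SYTL2 (-0.49), MADD (-0.55), MYO5C (-0.44), RIMS2 (-0.70), RAB10 (-0.64), STXBP3 (-1.03), SYT5 (-0.78), SYT7 (-0.83), EXOC1 (-0.036), EXOC5 (-0.056), EXOC6B (-0.13), EXOC3 (-0.14), CHGB (-0.79), TPD52L2 (-0.60), MIA3 (-0.84), KLK3 (-0.79), NAT1 (-0.73), INPP4B (-0.39), THSD7A (-0.36) and ZBTB16 (-1.05). For DHT they were RAB3D (0.17), SYT6 (0.10), TPD52L2 (0.034), TMED10 (0.16) and SEC24D (0.12). With positive controls RAB3IP (0.058), RAB3C (0.086), ESYT1 (0.082) and STEAP1 (0.0058) changed sign for siOCT1, and RAB3D (0.030) and TMED10 (0.019) for DHT. With loess centring RAB3IP (0.046), RAB3C (0.031) and ESYT1 (0.082) did for siOCT1. With values raised to background RAB3C (0.15) and KLK3 (-0.066) did for siOCT1, and RAB3A (-0.057) for DHT. Over all genes the DHT calls, 87 in all, ranged from 9 with values raised to background to 293 with positive controls, and the siOCT1 calls, 805 higher and 1353 lower, were 115 and 6423 with spike-in centring, which follows from the shift of all genes. The cause of the other changes was not tested. Background limits RAB3B in vehicle, RAB3A in part and 4 of the 10 genes altogether. With values raised to background the siOCT1 means of RAB3A and RAB3B were -0.057 and 0.18, against -0.49 and 0.40 in the main setting.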
